A study of Mus musculus with 5 samples.

Results

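The Zic genes Zic1, Zic2, Zic4 and Zic5 were examined for H3K27me3, the trimethylated form of lysine 27 on histone H3, in the mesenchyme of molars from C57BL/6 wildtype mice of postnatal day 3. The members were chosen by name, with earlier results of these data known. Their peaks were all peaks that touched the gene bodies with 5 kb on each side or the interval between the genes of a pair. These were 41 of 22757 peaks in H3K27me3 replicate 1 called against input, 46 of 24881 in the same library called against IgG, and 21 of 33379 in replicate 2 called against input, and the genes were 4 of 21938 protein-coding genes. The 5 libraries, all of that one strain, age, tissue and genotype, were 2 H3K27me3 libraries, 2 input libraries of chromatin that was not immunoprecipitated, and 1 library made with IgG, an antibody with no chromatin target. The epithelium had been taken off the molars before the mesenchyme was collected. Whether separate or pooled animals gave the H3K27me3 libraries is stated neither by the labels nor by the methods of the study, so an SD over them is a spread of n = 2 that may be technical. With 1 condition there was no comparison between groups and no test, and the values are descriptions beside the same values over all genes or all peaks.

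Zic genes encode transcription factors with zinc fingers of the C2H2 type and are relatives of the Gli genes, which act in Hedgehog signalling. They are best known from the dorsal neural tube, the cerebellum and the neural crest. Zic1 and Zic4 act together in cerebellar growth, Zic2 is a gene of holoprosencephaly, in which the forebrain fails to divide, and Zic5 acts in neural crest and neural tube development. H3K27me3 is made by Ezh2, the enzyme of Polycomb repressive complex 2, and in many tissues it lies over developmental transcription factor genes that are not in use there, often over CpG-rich DNA. RNA was not measured in these libraries, so that the peaks say nothing of how much Zic RNA the mesenchyme held.

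The members lie in 2 pairs, and the genes of a pair lie head to head on opposite strands. Coordinates are those of GRCm38 with the GENCODE M21 annotation. On chromosome 9, Zic1 (ENSMUSG00000032368.14, 91358058 to 91365810, minus strand) and Zic4 (ENSMUSG00000036972.14, 91362413 to 91389348, plus strand) overlap by 3398 bp, because the most upstream of the 12 annotated Zic4 transcript starts lies inside Zic1. On chromosome 14, Zic5 (ENSMUSG00000041703.7, 122456795 to 122465677, minus strand) and Zic2 (ENSMUSG00000061524.8, 122475435 to 122479852, plus strand) are separated by 9757 bp and transcribed away from each other, and the noncoding gene 2610035F20Rik lies in that interval. With 5 kb on each side, the Zic1-Zic4 region is 41.29 kb long (chr9:91353058-91394348) and the Zic2-Zic5 region 33.06 kb (chr14:122451795-122484852).

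The sequences of those replicate 1 peaks that a replicate 2 peak overlapped are printed here, as they were called in replicate 1. There were 6 such peaks, and 5 are printed, because the other, at chr9:91359399-91359538, lies in a UTR exon of Zic1. The sequences were read from the RefSeq copy of GRCm38.p6, plus strand, 5′ to 3′, and capitals mark each CpG, the dinucleotide around which Polycomb complexes are often found. The first lies in an intron of both Zic1 and Zic4 and is the middle 300 bases of a peak of 424 bp. The second lies past the 3′ end of Zic5, the third between Zic5 and Zic2, and the fourth between them inside 2610035F20Rik. The fifth lies past the 3′ end of Zic2 and is the middle 300 bases of a peak of 357 bp. The third shared only 46 bp with a replicate 2 peak, and the fifth 76 bp. Most printed bases of the third and of the fifth were thus called in replicate 1 alone.
chr9:91363222-91363521: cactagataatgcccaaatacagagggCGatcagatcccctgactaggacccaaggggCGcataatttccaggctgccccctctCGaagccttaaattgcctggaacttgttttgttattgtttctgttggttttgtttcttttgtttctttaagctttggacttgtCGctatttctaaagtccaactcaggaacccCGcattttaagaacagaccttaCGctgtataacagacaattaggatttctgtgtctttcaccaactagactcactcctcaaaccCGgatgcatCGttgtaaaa
chr14:122451703-122451977: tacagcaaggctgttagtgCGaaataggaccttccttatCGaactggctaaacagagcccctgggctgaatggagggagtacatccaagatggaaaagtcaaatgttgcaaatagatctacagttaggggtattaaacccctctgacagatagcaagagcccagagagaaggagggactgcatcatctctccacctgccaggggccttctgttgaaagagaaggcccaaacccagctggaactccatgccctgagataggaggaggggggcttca
chr14:122468442-122468671: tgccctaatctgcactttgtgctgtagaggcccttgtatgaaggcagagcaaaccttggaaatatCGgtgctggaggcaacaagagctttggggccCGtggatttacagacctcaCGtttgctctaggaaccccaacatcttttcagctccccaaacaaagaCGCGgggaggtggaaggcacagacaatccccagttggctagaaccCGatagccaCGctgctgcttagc
chr14:122473389-122473505: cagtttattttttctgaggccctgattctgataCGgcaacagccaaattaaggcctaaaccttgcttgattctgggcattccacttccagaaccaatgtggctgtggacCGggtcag
chr14:122481232-122481531: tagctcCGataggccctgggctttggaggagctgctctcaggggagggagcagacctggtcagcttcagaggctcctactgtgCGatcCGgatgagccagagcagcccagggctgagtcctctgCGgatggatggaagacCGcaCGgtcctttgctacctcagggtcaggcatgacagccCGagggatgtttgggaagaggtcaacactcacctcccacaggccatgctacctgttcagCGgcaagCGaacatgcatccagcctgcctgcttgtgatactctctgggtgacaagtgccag

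In order of printing these stretches held 8, 2, 7, 2 and 9 CpGs, with a GC content of 43.3%, 50.9%, 53.5%, 47.9% and 60%. The ratio of observed to expected CpGs, which corrects for GC content, ran from 0.113 in the second to 0.579 in the first. None reached the 0.6 that is commonly asked of a CpG island. The tetramer CGCG occurred 1 time, in the third, where it and all CpGs lie outside the bases shared with replicate 2.

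As a contrast, the part of the Zic1 5′ end peak that lies upstream of the gene is printed, a stretch chosen after its values were seen. The peak was called only in replicate 1 against input, at chr9:91365733-91365996.
chr9:91365811-91365996: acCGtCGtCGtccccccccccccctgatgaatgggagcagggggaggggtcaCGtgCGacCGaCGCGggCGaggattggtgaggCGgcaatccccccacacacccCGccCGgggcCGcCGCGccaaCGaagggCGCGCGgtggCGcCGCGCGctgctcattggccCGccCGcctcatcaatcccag
This stretch of 186 bases held 25 CpGs, with a GC content of 74.7% and an observed to expected ratio of 0.969, and CGCG occurred 6 times, overlapping matches included. It was denser in CpGs than any of the stretches printed before it.

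Peaks were next counted over the regions. In the Zic1-Zic4 region 27 peaks were called in replicate 1 against input, 27 with IgG as control and 14 in replicate 2. In the Zic2-Zic5 region the counts were 14, 19 and 7. The mean over the replicates called against input was 31 ± 14.1 peaks in both regions together (SD, n = 2). The replicate 2 library had the most tags (49947919 kept, compared with 30369351 in replicate 1) and the longest list, but in each region it had the fewest peaks. Tag length also differed, with 49 bp for replicate 1 and 74 bp for replicate 2, and depth, tag length and library cannot be told apart.

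**Figure D1:**
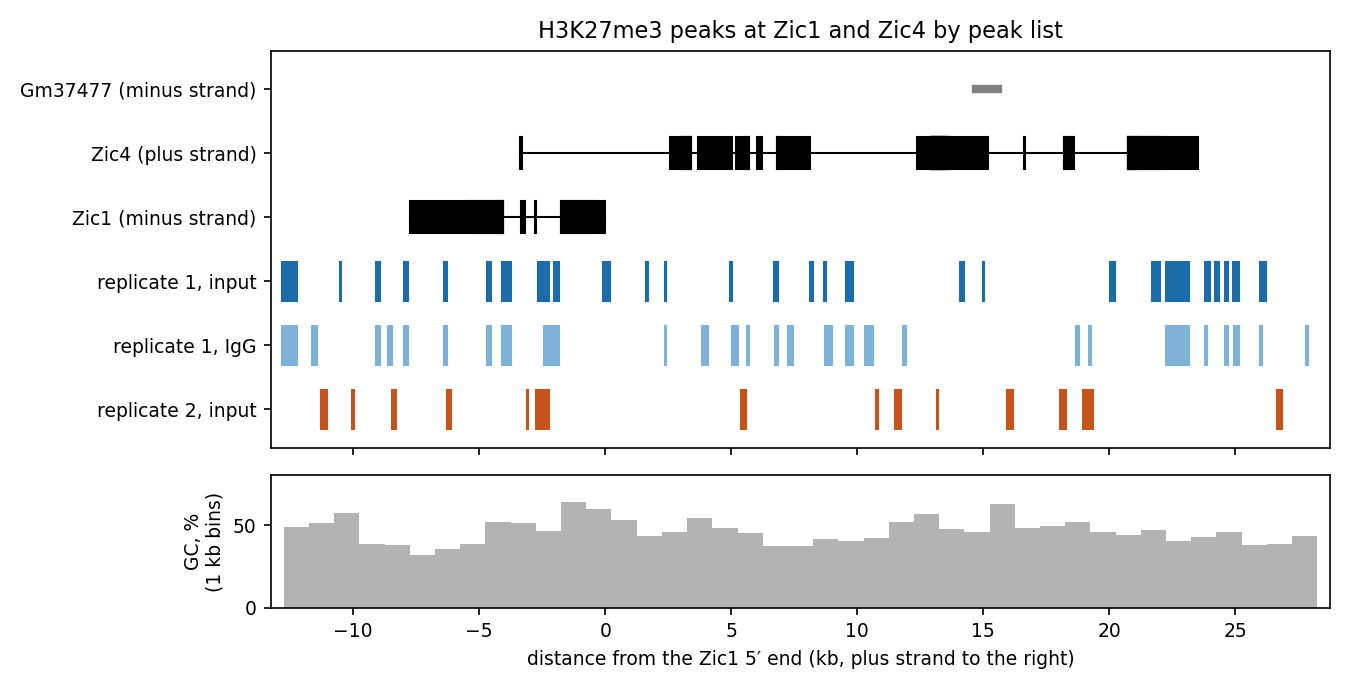
Map of the Zic1-Zic4 region, with distance from the Zic1 5′ end in kb on the x axis, exons as black boxes (all annotated transcripts merged), and the peaks of each of the 3 lists as coloured bars. The lower panel gives the GC content of 1 kb bins in %. Peaks of every list lie along both genes, and replicate 2 has no peak in a stretch of 7.612 kb that holds the Zic1 5′ end.

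In the Zic1-Zic4 region, peaks covered 14.0% of the bases in replicate 1 against input, 14.8% with IgG as control and 7.05% in replicate 2. The mean of the input lists was 10.5% ± 4.94 (SD, n = 2). In the Zic2-Zic5 region they covered 7.86%, 10.4% and 4.41%, with a mean of 6.13% ± 2.44 (SD, n = 2). The Zic1-Zic4 region was covered more than the Zic2-Zic5 region in each of the 3 lists as deposited. This order turned among the strongest peaks, which were few. The means were 0.848% and 1.39% at a fold enrichment of at least 3. They were 0.283% and 1.16% at a −log10 p of at least 3. At that fold enrichment each region kept 4 replicate 1 peaks and 0 replicate 2 peaks, so that order came from replicate 1 alone. At that −log10 p the mean was 3 peaks over both regions together. With all peaks, the gap between the means was smaller than the SD of the Zic1-Zic4 region, which comes from the difference between the libraries.

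Single peaks were weak in every list. The deposited fold enrichment, which divides the pileup by the control's local background after adding a pseudocount of 1 to each, ran from 2.39 to 3.62 over all peaks of the regions and lists. In the Zic1-Zic4 region its median was 2.68 in replicate 1 against input, 2.72 with IgG as control and 2.48 in replicate 2, and in the Zic2-Zic5 region it was 2.75, 2.81 and 2.57. The medians over all nuclear peaks of these lists were 2.63, 2.66 and 2.45. The medians of the Zic peaks were thus slightly above those of the whole lists in each case.

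The pileup is the scaled number of overlapping tags, averaged over each peak. It was 3.12 to 4.55 in replicate 1 against input at Zic1-Zic4 and 3.12 to 4.70 at Zic2-Zic5. In replicate 2 it was 6 to 7.97 and 6.26 to 7.48. The lowest pileup that was called corresponds to 4 tags in replicate 1 and to 6 tags in replicate 2. At that lowest value lay 9 of 27 replicate 1 peaks at Zic1-Zic4 and 4 of 14 at Zic2-Zic5, compared with 44.5% of all replicate 1 peaks. In replicate 2 it was 1 of 14 and 0 of 7, compared with 37.9%. Single positions therefore rest on few tags and are subject to counting error, and a base without a peak is one that did not pass the authors' threshold, not one shown to lack the mark.

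The peaks of the regions had a higher median length than the whole list in each case. Their median length at Zic1-Zic4 was 162 bp in replicate 1 against input, 155 bp with IgG as control and 199 bp in replicate 2, and at Zic2-Zic5 it was 203 bp, 138 bp and 233 bp. Over all nuclear peaks the medians were 119 bp, 120 bp and 181 bp. The longest peak, 913 bp at chr9:91388074-91388986, lay over UTR sequence of Zic4 at its 3′ end and had the same bounds against input and against IgG, with a fold enrichment of 2.81 and 2.85. No replicate 2 peak overlapped it.

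The peak of highest fold enrichment lay at a different place in each list. Replicate 1 against input had it at chr9:91368169-91368232, in a Zic4 intron (3.09), and at chr14:122468442-122468671, between Zic5 and Zic2 (3.53). Against IgG it was at chr9:91356714-91356876, past the 3′ end of Zic1 (3.44), and at chr14:122465262-122465314, in a coding exon of Zic5 (3.62). In replicate 2 it was at chr9:91376556-91376626, in a Zic4 intron (2.89), and at chr14:122455053-122455184, past the 3′ end of Zic5 (2.83). A fold enrichment of 3 or higher was reached by 4 of 27 and 4 of 14 replicate 1 peaks in the 2 regions, compared with 8.96% of all replicate 1 peaks, by 7 of 27 and 4 of 19 against IgG, compared with 10.7%, and by 0 of 14 and 0 of 7 replicate 2 peaks, compared with 1.56%.

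**Figure D2:**
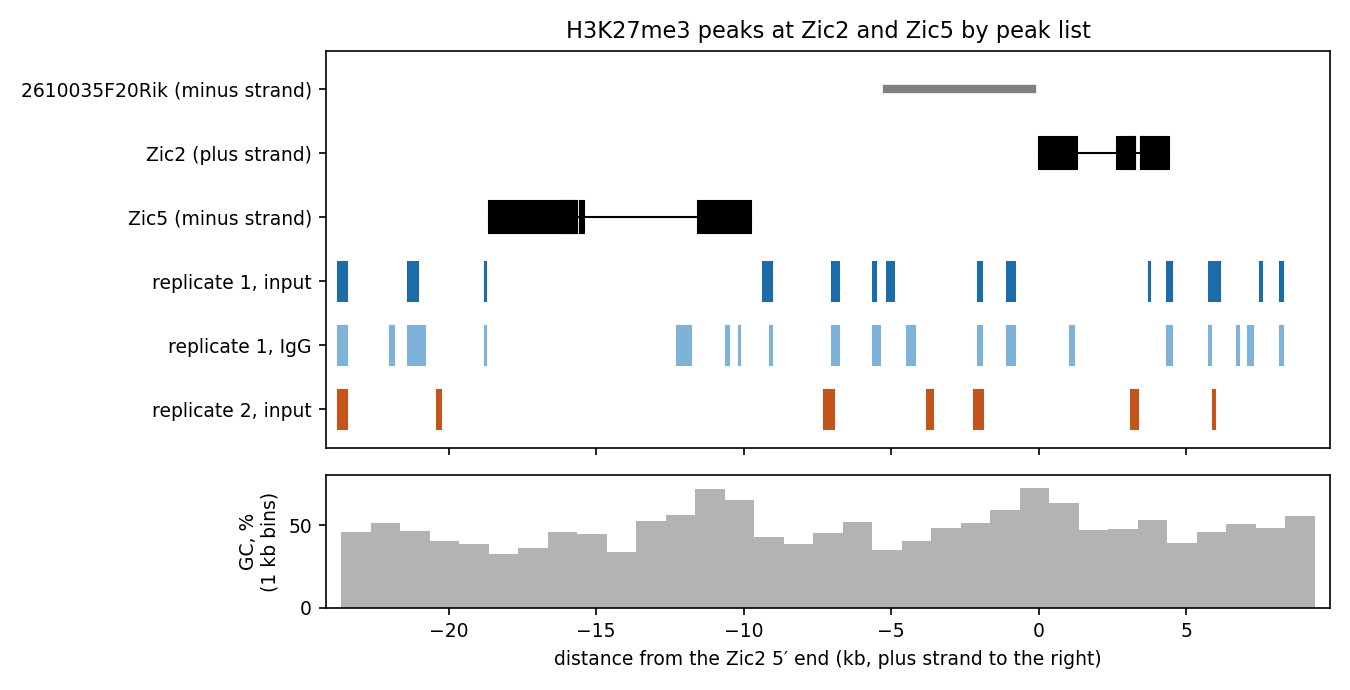
Map of the Zic2-Zic5 region, with distance from the Zic2 5′ end in kb on the x axis, exons as black boxes, and the peaks of each of the 3 lists as coloured bars. The lower panel gives the GC content of 1 kb bins in %. The body of Zic5 has no peak in replicate 1 against input or in replicate 2, and 3 in replicate 1 against IgG.

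At Zic1-Zic4 the peaks lay along the genes and in both flanks. In replicate 1 against input 10 of 27 touched an exon, 8 lay in introns and 9 in the flanks, against IgG the counts were 9, 8 and 10, and in replicate 2 they were 4, 6 and 4 of 14. Zic4 alone is 26936 bp long in a region of 41.29 kb. Zic5 and Zic2 are 8883 bp and 4418 bp long in a region of 33.06 kb. The genes thus fill a smaller part of the Zic2-Zic5 region, and these counts of places are not corrected for that. At Zic2-Zic5 most peaks were outside the genes. In replicate 1 against input 2 of 14 touched an exon, none lay in an intron, 6 lay between the genes and 6 in the flanks. Against IgG these counts were 4, 1, 6 and 8 of 19, and in replicate 2 they were 1, 0, 3 and 3 of 7.

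No peak lay in the body of Zic5 in either input-called list. In replicate 1 against input the longest stretch of the region without a peak ran from 122456709 to 122466080 (9.372 kb), and in replicate 2 it ran from 122455185 to 122468170 (12.99 kb). Both stretches hold the whole Zic5 body. Against IgG, 3 peaks lay in Zic5, namely 1 in its intron (chr14:122463173-122463644, 2.96) and 2 in a coding exon (chr14:122464829-122464921, 2.81, and chr14:122465262-122465314, 3.62), where the values are fold enrichments. The H3K27me3 library was the same as in the input-called list, so that these 3 calls depended on the control.

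In the Zic1-Zic4 region the longest stretch without a peak was 4.966 kb in replicate 1 against input (91380853 to 91385818), 6.707 kb against IgG (91377764 to 91384470) and 7.612 kb in replicate 2 (91363593 to 91371204). The replicate 1 stretches lie in the 3′ part of Zic4, while that of replicate 2 holds the Zic1 5′ end and the first exon of Zic1. The replicate 1 stretches overlap each other, and neither overlaps that of replicate 2.

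In order to compare the members with other genes, the share of each gene body with 5 kb on each side that was covered by peaks was measured. Windows of paired genes overlap, so that some peaks count for both. Zic1 had 13 peaks in replicate 1 against input, 11 with IgG as control and 6 in replicate 2, which covered 14.7%, 15.4% and 7.10% (10.9% ± 5.35, SD, n = 2, input lists). Zic4 had 24, 23 and 12 peaks, which covered 13.7%, 13.7% and 6.82% (10.3% ± 4.86). The values of these overlapping genes were close in each list.

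Zic2 had 8, 9 and 4 peaks, which covered 8.76%, 9.40% and 5.65% (7.21% ± 2.20, SD, n = 2). Zic5 had 7, 10 and 3 peaks, which covered 7.53%, 11.0% and 3.40% (5.47% ± 2.92). In both input-called lists the order from high to low was Zic1, Zic4, Zic2 and Zic5, and against IgG Zic5 came before Zic2. No neighbours in that order differed by more than the larger of their SDs. These SDs hold the difference between the libraries, while the order was read within each list.

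All 4 members had a peak in this window in each list, as did 25% of protein-coding genes in replicate 1 against input, 25.9% with IgG as control and 35.7% in replicate 2, with 15.7% in both replicates. The covered share of Zic1 was above that of 99.9%, 99.8% and 99.5% of protein-coding genes in the 3 lists, that of Zic4 above 99.8%, 99.7% and 99.4%, and that of Zic2 above 99.5%, 99.4% and 99.3%. Zic5 was above 99.4%, 99.5% and 98.7%. In replicate 2 the share of Zic5, 3.40%, was below the 99th percentile of all genes, which was 4.24% there.

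**Figure D3:**
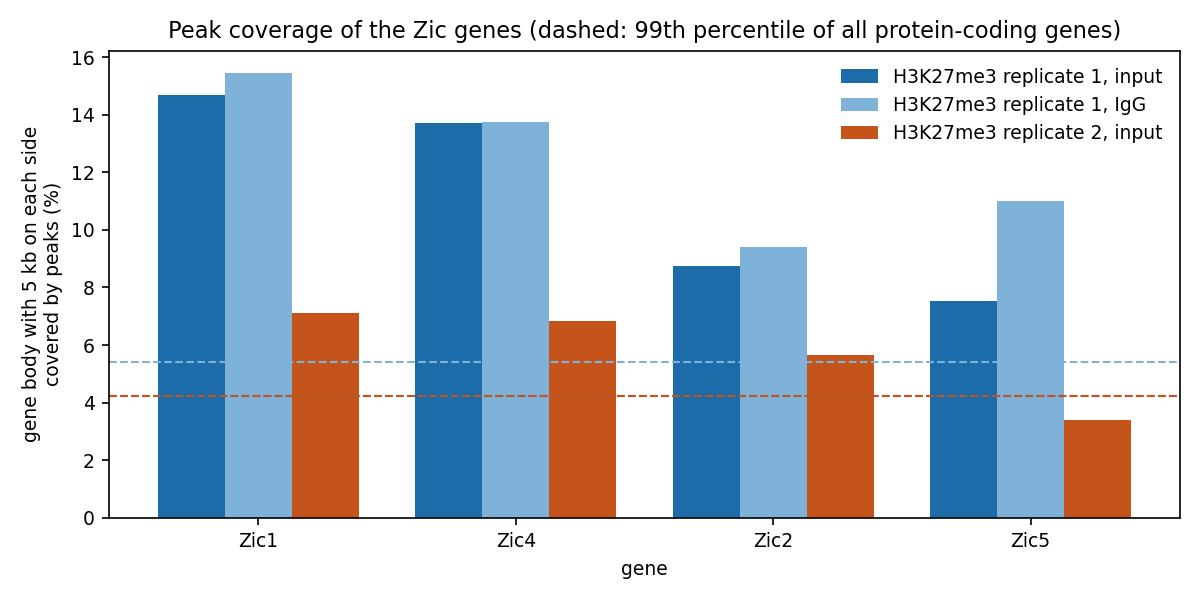
Share of the body of each of the 4 genes with 5 kb on each side that is covered by peaks, in %, with 1 bar for each of the 3 lists. Dashed lines mark the 99th percentile of all 21938 protein-coding genes, 4.24% in replicate 1 against input and in replicate 2 (1 line over the other) and 5.41% against IgG. The members lie above these lines, other than Zic5 in replicate 2 at 3.40%.

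The 5′ ends were then examined. A peak lay within 1 kb of the gene's 5′ end at 4 of 4 members in replicate 1 against input, where 3.87% of protein-coding genes had one, at 3 of 4 against IgG (4.52%) and at 1 of 4 in replicate 2 (4.16%). Zic4 had one in both replicates, 1 of 4 members beside 1.04% of protein-coding genes. This rests on the most upstream annotated Zic4 start, at 91362413, which lies inside Zic1. The RefSeq promoter of Zic4 (chr9:91368722-91369021) lies downstream of it and was touched by 0 peaks in each list. An annotated start in that promoter, at 91368970, was 738 bp, 673 bp and 2235 bp from a peak in the 3 lists. The 5′ ends of Zic1, Zic2 and Zic5 had a peak within 1 kb in replicate 1 against input and none in replicate 2.

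The nearest peak overlapped the Zic1 5′ end in replicate 1 against input, but was 1829 bp from it against IgG and 2218 bp from it in replicate 2. At Zic4 these distances were 358 bp, 348 bp and 278 bp. At Zic5 they were 404 bp, 363 bp and 2494 bp, and at Zic2 they were 803 bp, 794 bp and 1906 bp. Except at Zic4, no replicate 2 peak came within 1 kb, and the member farthest from one was Zic5.

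Zic4 and Zic1 also have internal starts, and some of these lay closer to replicate 2 peaks. The internal Zic1 start at 91363054 was 106 bp, 332 bp and 12 bp from a peak in the 3 lists. The Zic4 starts at 91371213 and 91371350 were inside a replicate 2 peak (chr9:91371205-91371398, fold enrichment 2.64), and the Zic4 start at 91371004 was inside a peak called against IgG. The internal Zic2 start at 122478100 was 466 bp from a replicate 2 peak and 1059 bp from a replicate 1 peak. When any annotated start was used, a rule added after the values were seen, 4 of 4 members had a peak within 1 kb against input in replicate 1, where 6.09% of protein-coding genes did, 4 of 4 against IgG (6.86%) and 3 of 4 in replicate 2 (7.41%). By this rule 3 of 4 members (all but Zic5) had one in both replicates, where 1.91% of protein-coding genes did. At Zic2 the replicates matched different starts, and Zic4 has 12 annotated starts and so more chances of such a match than most genes. Zic1 had a replicate 2 peak within 1 kb only at its internal start. The peaks nearest to that start in the input-called lists lay 747 bp (replicate 1) and 653 bp (replicate 2) from the Zic4 5′ end, so that they counted for both genes.

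The agreement of the replicates was measured by overlap of at least 1 base. Of the 41 replicate 1 peaks of both regions, 6 were overlapped by a replicate 2 peak (14.6%, 95% Wilson interval 6.88% to 28.4%, counting error only), where 2.85% of all replicate 1 peaks were. Seen from replicate 2, it was 6 of 21 replicate 2 peaks (28.6%, interval 13.8% to 49.96%), where 1.9% of all were. By region, it was 2 of 27 replicate 1 peaks at Zic1-Zic4 and 4 of 14 at Zic2-Zic5. In the other direction it was 2 of 14 replicate 2 peaks (14.3%, interval 4.01% to 39.9%) and 4 of 7 (57.1%, interval 25.05% to 84.2%). The Wilson intervals of the replicate 1 shares, 2.06% to 23.4% and 11.7% to 54.6%, overlap. Over both regions most peaks of each library thus had no overlap in the other, while at Zic2-Zic5 4 of the 7 replicate 2 peaks had one. Peaks are denser in the regions than around them, which raises overlap by itself. Whether the replicates agreed beyond that density was not tested.

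A wider match told more of the neighbourhood. Of the 41 replicate 1 peaks, 22 (53.7%, interval 38.7% to 67.9%) had a replicate 2 peak within 1 kb, where 12.7% of all replicate 1 peaks did. Of the 21 replicate 2 peaks, 18 (85.7%, interval 65.4% to 95.02%) had a replicate 1 peak within 1 kb, where 7.46% did. The median distance from a replicate 2 peak to the nearest replicate 1 peak was 470.5 bp at Zic1-Zic4 and 0 bp at Zic2-Zic5, compared with 42.5 kb over the 33366 replicate 2 peaks that had one on their chromosome. Peaks of a dense region lie close to each other for that reason too, and the largest such distance in the regions was 1732 bp.

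Peaks of both libraries were then placed in 1 kb bins. Of 41 bins at Zic1-Zic4, 23 held a replicate 1 peak, 15 a replicate 2 peak, 5 held both and 33 held either, and 6 held no peak of any of the 3 lists. Of 33 bins at Zic2-Zic5, 12 held a replicate 1 peak, 9 a replicate 2 peak, 5 both and 16 either, and 12 held none of the 3.

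The peaks printed above had these values. At Zic1-Zic4 the replicate 1 peak in the shared intron (chr9:91363160-91363583, pileup 3.26, fold enrichment 2.59) lay wholly within the longest replicate 2 peak of the region (chr9:91363066-91363592, 6.26 and 2.49), and 424 bp were shared. Past the 3′ end of Zic5, the replicate 1 peak (chr14:122451703-122451977, fold enrichment 2.80) shared 275 bp with that of replicate 2 (chr14:122451672-122451987, 2.48). Inside 2610035F20Rik, the replicate 1 peak (chr14:122473389-122473505, 2.65) shared 117 bp with that of replicate 2 (chr14:122473232-122473529, 2.59). These 3 replicate 1 peaks lay within a replicate 2 peak over their whole length.

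The others shared only a part. The peak between Zic5 and Zic2 (chr14:122468442-122468671, fold enrichment 3.53) shared 46 bp with a replicate 2 peak (chr14:122468171-122468487, 2.45). The peak past the 3′ end of Zic2 (chr14:122481204-122481560, 3.05) shared 76 bp with a replicate 2 peak (chr14:122481344-122481419, 2.57). The peak in the Zic1 UTR exon shared 24 bp. The intronic peak lay 747 bp from the Zic4 5′ end, and the other 5 lay more than 1 kb from the 5′ end of every member.

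The effect of the control was read from replicate 1, where the immunoprecipitated library is the same. Among the 41 peaks called against input, 29 (70.7%, interval 55.5% to 82.4%) shared bases with a peak called against IgG, where 51% of all did. In return, 28 of the 46 peaks called against IgG (60.9%, interval 46.5% to 73.6%) shared bases with the input-called list, where 46.6% did. Replicate 2 peaks overlapped 7 of the 46 IgG-called peaks (15.2%, interval 7.57% to 28.2%), where 3.32% were overlapped over the whole list. Here too the peak density of the regions raises such shares. With IgG in place of input the covered share went from 14.0% to 14.8% at Zic1-Zic4 and from 7.86% to 10.4% at Zic2-Zic5, where the added peaks included those in Zic5.

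The peaks were set against their surroundings over 200 kb on each side. In the Zic1-Zic4 region there were 6.539 peaks per 10 kb in replicate 1 against input, 6.539 with IgG as control and 3.391 in replicate 2, compared with 0.3345, 0.4739 and 0.3067 in the surroundings. In the Zic2-Zic5 region there were 4.235, 5.747 and 2.117, compared with 0.6541, 0.6268 and 0.545. The surroundings of Zic2-Zic5 were not even. On the side of Zic5 there were 18, 17 and 13 peaks in the 3 lists, and on the side of Zic2 there were 6, 6 and 7. At Zic1-Zic4 these counts were 3, 4 and 3 on the side of Zic1 and 9, 13 and 8 on that of Zic4.

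**Figure D4:**
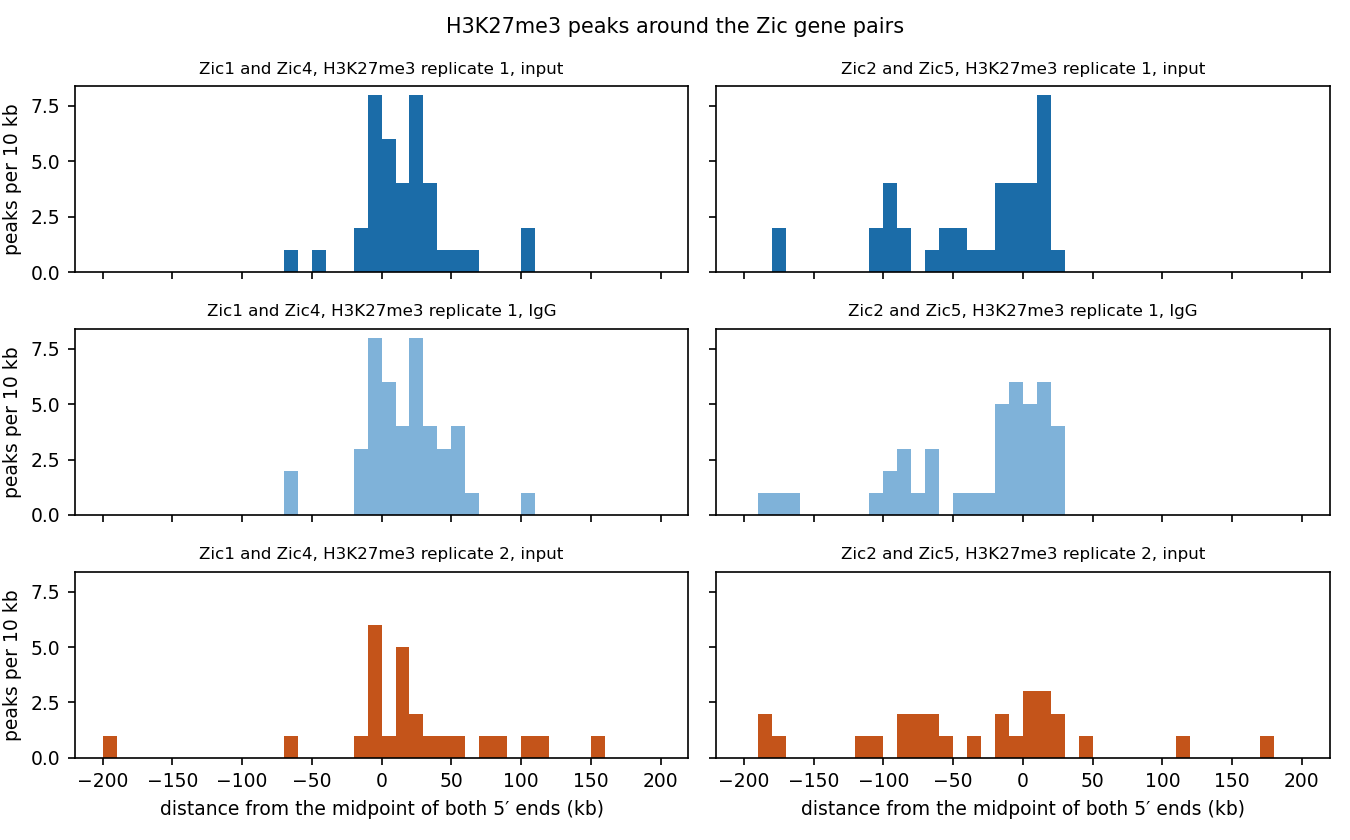
Number of peaks in 10 kb bins up to 200 kb from the midpoint of the 5′ ends of each pair, with distance in kb on the x axis, 1 column of panels for each pair and 1 row for each list. In every panel the fullest bins lie within 30 kb of the middle, with up to 8 peaks per bin in replicate 1 and up to 6 in replicate 2, and a second group of peaks lies toward -100 kb on the Zic5 side of the Zic2-Zic5 pair.

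When peaks with gaps of up to 5 kb were joined, the Zic1-Zic4 peaks of replicate 1 against input formed 1 stretch of 42.3 kb (chr9:91349671-91392015) with 28 peaks, the eighth longest of 17201 such stretches. Against IgG they fell into stretches of 28.1 kb and 22 kb, and in replicate 2 the longest was 13.7 kb, with 7 peaks. At Zic2-Zic5 the longest stretch was 28 kb with 17 peaks in replicate 1 against input (chr14:122466081-122494034), 30.9 kb with 21 peaks against IgG and 13.2 kb with 6 peaks in replicate 2. In replicate 2 no stretch at either pair reached 20 kb, and in that list 19 stretches did. At Zic2-Zic5 each of these longest stretches ran on past Zic2.

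The genes next to the pairs were examined to see how far the peaks reached. Zic1-Zic4 lies in a gene-poor interval, with Tbc1d2b 1087 kb before it and Plscr5 803.6 kb after it. Tbc1d2b had 1 peak in each list (0.0889%, 0.0889% and 0.240% covered), and Plscr5 had 0. Gm5089, 5.68 kb past the 3′ end of Zic5, had 5, 6 and 3 peaks, which covered 3.44%, 5.47% and 2.11%, and its window overlaps the Zic2-Zic5 region. Gm10837, 10.73 kb past Zic2, had 5, 6 and 3 peaks, which covered 8.25%, 11.3% and 5.24%. The coverage of Gm10837 was close to that of Zic2, while the neighbours of Zic1-Zic4 had little.

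Base composition was compared because Polycomb marks often follow CpG-rich DNA. Around the 5′ ends, with 1 kb on each side, Zic2 held 207 CpGs (GC 68.7%, observed to expected ratio 0.886), Zic1 110 (58.9%, 0.675), Zic5 93 (56.4%, 0.590) and Zic4 88 (51.6%, 0.660). The medians over all protein-coding genes were 61, 51.2% and 0.474. Each member thus was above the median of all genes in all 3 measures. RefSeq promoters of 300 bases (GRCm38.p6) were found for 3 of 4 members, and Zic2 was not matched. That of Zic1 (chr9:91365719-91366018) held 31 CpGs, that of Zic5 15 and that of Zic4, which starts downstream of the GENCODE 5′ end, 8, compared with a median of 7 over 32851 promoters. The tetramer CGCG (palindromic, overlapping matches counted) occurred 7 times in the Zic1 promoter, 1 time in that of Zic4 and 0 times in that of Zic5, and 38% of all these promoters hold it. Of these 3 promoters only that of Zic1 was touched by a peak, in replicate 1 against input.

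The most GC-rich DNA of the regions filled few bins, too few to set them apart from the other bins. Of the 1 kb bins with a GC content of 60% or more, 2 lay at Zic1-Zic4 and held peaks in 0, 0 and 1 of them in the 3 lists, and 4 lay at Zic2-Zic5 and held peaks in 0, 2 and 0. The bins below 60% held peaks in 23, 25 and 14 of 39 at Zic1-Zic4 and in 12, 16 and 9 of 29 at Zic2-Zic5.

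Compared with all peaks, those of the regions were similar in GC content and had a higher ratio of observed to expected CpGs. In windows of 200 bp at the peak centres the median GC content of the Zic peaks was 46.5% in replicate 1 against input, 45.5% with IgG as control and 48.5% in replicate 2, compared with 46.0%, 46.5% and 44.5% over all nuclear peaks. The median observed to expected CpG ratio was 0.264, 0.319 and 0.445, compared with 0.174, 0.179 and 0.152. By region it was 0.247, 0.244 and 0.462 at Zic1-Zic4, where the whole region had 0.439. At Zic2-Zic5 it was 0.436, 0.427 and 0.445, where the whole region had 0.534. The peaks thus were above their own region only in replicate 2 at Zic1-Zic4. A median of short windows and a ratio over a whole region are unlike measures, and a preference of the peaks for CpGs was not tested. CpG-rich windows, with a GC content of at least 50% and a ratio of at least 0.6, were 3 of 41, 5 of 46 and 2 of 21, compared with 2.92%, 3.52% and 2.25% of all windows. These counts are small, and no test was made.

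CGCG occurred in the windows of 4 of 41, 9 of 46 and 3 of 21 Zic peaks, compared with 5.23%, 5.75% and 3.71% of all nuclear peaks. CCTGCTG, the core that Zic proteins bind, was searched on both strands. It occurred in 0 of 41 Zic windows in replicate 1 against input, and 3 counts, the limit that a count of 0 allows, would be 7.32%. It occurred in 1 of 46 against IgG and in 1 of 21 in replicate 2, compared with 5.83%, 6.17% and 5.38% of all. It was not found in any printed sequence or in the RefSeq promoters of Zic1, Zic4 and Zic5, and 10.5% of all RefSeq promoters hold it. A match to these letters is not a binding site, and these counts are too small to read a difference from all peaks.

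The genes whose covered shares in the 3 lists were most like those of each member were looked up, with the Euclidean distance in percentage points as the measure of likeness over the 3 lists, leaving out genes whose windows overlap a member. Nearest to Zic1 were Dmrt2 (distance 2.05), Dmrt3 (2.21) and Eomes (2.81). Nearest to Zic4 were Nr2e1 (1.35), Dmrt3 (1.75) and Pou3f2 (1.78). Nearest to Zic5 were Hoxc13 (0.305), Nkx1-2 (1.199) and Fezf1 (1.34), and nearest to Zic2 were Sox17 (0.899), Nkx2-1 (1.2022) and Lhx2 (1.44). Hoxc13, which acts in hair and nail formation, had 7.58%, 11.2% and 3.21%, close to Zic5 in each list, and Nr2e1, a nuclear receptor of neural stem cells, had 12.4%, 13.9% and 6.67%.

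Relatives and functional partners of the Zic genes were described by list. Of the 6 Gli and Glis genes, whose proteins share the zinc finger type of Zic proteins, 0 had a peak within 1 kb of the 5′ end in both replicates, where 1.04% of protein-coding genes did, and so few genes cannot be set apart from that share. In the body window 3 of 6 had one in both, where 15.7% did. Their median covered share was 0.0109% in replicate 1 against input, 0% with IgG as control and 0.160% in replicate 2. Every member of the Zic pairs was covered more than each of these genes in each list, and the highest mean among them was that of Gli1, with 1.99% in replicate 1 and 1.29% in replicate 2.

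Of 10 neural plate border and neural crest genes, 2 had a peak near the 5′ end in both replicates (1.04% of protein-coding genes), Pax3 and Pax7. The median covered share of this list was 1.19%, 0.711% and 0.718% in the 3 lists, and Msx2, Dlx5, Snai2 and Sox9 had 0 peaks in each. Pax3 had 31, 35 and 17 peaks, which covered 6.49%, 6.52% and 2.90%, and Pax7 27, 34 and 8 peaks, which covered 5.85%, 7.47% and 2.37%. Of the 8 holoprosencephaly genes other than Zic2, 1 had such a peak in both replicates, Six3, a forebrain homeobox gene with 18, 17 and 8 peaks, which covered 12.7%, 14.5% and 9.85%. The median of that list was 0.650%, 0.683% and 0.0320%, and Tgif1 and Ptch1 had 0 peaks in each. Shh, the Hedgehog ligand, had 2, 2 and 1 peaks, and its nearest peak was 2786 bp or more from the 5′ end. Foxd3, a neural crest transcription factor, had 6, 5 and 4 peaks, which covered 10.8%, 12.97% and 6.64%, and a peak near the 5′ end in replicate 2 alone. Foxd3 and Six3 were the only genes of both lists whose mean covered share over the replicates (8.70% ± 2.92 and 11.3% ± 2.02, SD, n = 2) was above the 5.47% of Zic5, the lowest of the members.

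The tissue label could not be checked by RNA, so that only promoter peaks of marker genes were counted. A peak within 1 kb of the 5′ end in both replicates was found at 1 of 9 dental mesenchyme markers (Pax9), at 0 of 6 dental epithelium markers, 0 of 3 endothelium markers, 0 of 3 blood markers and 0 of 3 neuron and glia markers, where 1.04% of protein-coding genes had one. Counts of 0 among so few genes cannot be set apart from that share. The covered shares of the mesenchyme markers had a median of 0.524%, 0.609% and 0.958% in the 3 lists. The medians were 0.137%, 0.294% and 0% for epithelium markers, 0%, 0% and 0.0883% for endothelium markers, 0.420%, 0.139% and 0.354% for blood markers, and 0.588%, 0.588% and 1.31% for neuron and glia markers. A mark on chromatin of a mixed cell population does not show which cells carried it, and the part of other cell types in the Zic peaks was not tested.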

How the data were processed

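H3K27me3 ChIP-seq of molar mesenchyme was analysed from 3 lists of broad peaks. Reads had been aligned to GRCm38 with BWA by the authors, uniquely mapped reads were kept, and broad peaks were called by MACS2 (2.1.1) with a p-value threshold of 0.005. Libraries were not pooled. The deposited pileup is a signal, the scaled number of overlapping tags averaged over a peak. The fold enrichment deposited for each peak is a ratio, the pileup over the control background with a pseudocount of 1 on both, which makes it depend on depth. The authors gave the p-value and q-value of each peak as −log10, although the file headers say that no q-value was calculated. MACS2 applied fragment lengths of 46 bp to replicate 1 and 71 bp to replicate 2, shorter than the tags, which narrows peaks. Tags kept were 30369351 in H3K27me3 replicate 1, 23688420 in its input, 24440452 in IgG, 49947919 in replicate 2 and 51681224 in its input.

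Groups and replicates came from the sample descriptions. Peaks were intersected with GENCODE M21 genes, and sequences were read from GRCm38.p6, with Python 3.11.15, NumPy 2.4.6, SciPy 1.17.1 and pysam 0.24.0. Scripts were tested on simulated peaks. Intervals are 95% Wilson intervals and cover counting error only. The members and all gene lists were chosen with earlier results of these data known. The named genes were the members, 1 gene that is not reported here, the nearest coding gene on each side of each pair, the 3 genes most alike in coverage to each member, and, of the other lists, those with a peak near the 5′ end in both replicates. Gli1, Foxd3, Shh and the list genes with 0 peaks were named after their values were seen. Named peaks were those overlapped by the other replicate and the highest and longest of each list and region, and the others were chosen after their values were seen. Alternatives were the peak threshold, control, depth, flank, distance to the 5′ end, overlap and each replicate left out.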

Additional observations from a re-analysis of the deposited data

How the results depend on the processing

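The covered shares, peak numbers, 5′ end counts and replicate overlap were recomputed under 42 alternatives. In 27 of them the value moved by less than the spread between replicates or, for a count, by less than 1.5 times, or for a share stayed within its interval. Where that spread was the measure, leaving out 1 replicate was bound to stay within it, since a mean of 2 values cannot move further. With peaks under a fold enrichment of 3 left out, both regions held a mean of 4 peaks, the covered shares were 0.848% (Zic1-Zic4) and 1.39% (Zic2-Zic5), 0 members had a peak near the 5′ end in both replicates, and 0 of 8 replicate 1 peaks (0%) were overlapped. This threshold leaves 2040 and 522 peaks in the replicate lists, and it depends on depth through the pseudocount. At a −log10 p of 3 or higher these values were 3, 0.283%, 1.16%, 0 and 0 of 4 (0%), with 744 and 3678 peaks left. Both settings turned the order of the regions, since Zic2-Zic5 was then covered more than Zic1-Zic4. That turn rests on few peaks, and with the fold enrichment setting on replicate 1 alone. The smaller lists are part of the construction of both settings. Members with a peak near the 5′ end in both replicates were 2 within 2 kb, 4 within 5 kb, and 3 with any annotated start, which was chosen after seeing the data. The shared replicate 1 peaks came to 53.7% when a distance of up to 1 kb counted. With 1 replicate left out, the number of peaks was 21 to 41, the Zic1-Zic4 share 7.05% to 14.0%, the Zic2-Zic5 share 4.41% to 7.86% and the 5′ end count 1 to 4, where replicate 1 gave 4 and replicate 2 gave 1. With flanks of 1 kb and 10 kb the mean number of peaks was 22.5 and 37, and the overlap was 13.3% and 16%. Asking for 50% of the replicate 1 peak lowered the overlap from 6 to 3 of 41 (7.32%), which lies within the interval of the main share. With IgG or a reduced replicate 2 list it was 15.2% and 12.2%. No paired analysis was possible because the results come from no test between groups. Depth limits single peaks, which rest on as few as 4 tags in replicate 1 and 6 in replicate 2.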
